A study of Mus musculus with 6 samples.

Results

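The genes described here encode the proteins that hold back the cyclin-dependent kinases, the CDKs, which drive the cell cycle. The list held 8 genes, Cdkn1a, Cdkn1b, Cdkn1c, Cdkn2a, Cdkn2b, Cdkn2c, Cdkn2d and Cdkn3, and a gene counted as measured where a probe set of the array was annotated to it and to no other gene. By that rule 7 of the 8 were measured, among 19938 genes in all. Cdkn1a, the p21 gene, has its probe set listed together with another gene, so it has no value of its own here. Cdkn1b was measured by 2 probe sets and each of the other 6 by 1, and the brighter Cdkn1b probe set over all arrays was taken for the comparison.

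The CDK inhibitors fall into families. The INK4 proteins p16 (from Cdkn2a), p15 (Cdkn2b), p18 (Cdkn2c) and p19 (Cdkn2d) bind CDK4 and CDK6 and keep them from pairing with D-type cyclins. The CIP/KIP proteins p21 (Cdkn1a), p27 (Cdkn1b) and p57 (Cdkn1c) bind whole cyclin-CDK complexes, above all those of CDK2. Cdkn3 belongs to neither family: it encodes a phosphatase that takes the activating phosphate off CDK2 and CDK1. In melanocytes the INK4 proteins are known above all for growth arrest and senescence, and loss of Cdkn2a is a common route to immortal melanocyte lines.

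Melan-Ink4a is such a line, grown from skin of C57BL/6J mice, and its labelled genotype is Ink4a-ARF1 null, so the Cdkn2a locus is disrupted in both groups. Melan-Ink4a cells were kept for 21 days with 10 nM NRG1-b1, the growth factor neuregulin 1, which acts through the receptor ERBB3, or were left untreated, and 3 arrays were run for each group. Both groups grew in RPMI medium with 10% serum, 200 nM TPA, a phorbol ester, together with cholera toxin at 200 pM, and were harvested for RNA when 90% confluent. The study asked how lasting NRG1/ERBB3 signalling changes gene expression in melanocytes. Values are log2 signals of Affymetrix Mouse Gene 1.0 ST arrays, so that a difference of 1 is a 2-fold change, and signals of different genes cannot be ranked against each other. Whether the arrays within a group stand for separate cultures is not stated in the labels; the p-values therefore rest on the spread between arrays, and that spread may be technical.

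Marker genes of melanocytes and of other skin and blood cells were compared between the groups, each list with itself; levels of different lists say nothing about which cells were present, and the arrays give no independent check of the labelled cell type. The mean signal of 10 melanocyte markers, among them Tyr, Dct and Sox10, was 11.5 to 11.6 on the NRG1 arrays and 12.3 on the untreated arrays. That of 5 keratinocyte markers was 5.81 to 5.83 with NRG1 and 5.81 to 6.00 without, that of 5 fibroblast markers 6.59 to 6.77 and 6.51 to 6.68, and that of 4 leukocyte markers 6.60 to 6.65 and 6.49 to 6.64. Of the 14 genes of the other cell types, Col1a1 and Cd68 passed the test, both upward, and of the melanocyte markers 9 of 10 passed downward. The part of these markers' shifts in the results on CDK inhibitors was not tested.

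With NRG1, 4 of the 7 measured genes rose (Cdkn1c, Cdkn2b, Cdkn2c and Cdkn3), 1 fell (Cdkn1b) and 2 did not pass the test (Cdkn2a and Cdkn2d). Rose and fell are used where limma's adjusted p over all genes was under 0.05, and by that rule 20.9% of all genes were called, 12.3% upward (2461 genes) and 8.56% downward (1707 genes). After quantile normalization the split over all genes was 2257 upward and 2396 downward. The median difference of the 7 genes was 0.21 on the log2 scale, with a range from -0.39 to 0.81, against a median of -0.029 over all genes tested. In all 7 the NRG1 arrays lay wholly above or wholly below the untreated arrays, 5 above and 2 below; this held for 36.7% of all genes, 18.6% above and 18.1% below. When a change of at least 1.2-fold was required (limma treat), Cdkn3 alone of the 7 passed, and 6.14% of all genes did. With 3 arrays a group, the smallest 2-sided p of an exact permutation test on 1 gene is 0.1. In RNA from whole cultures, fewer cells that express a gene and less of its RNA per cell cannot be told apart.

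**Figure D1:**
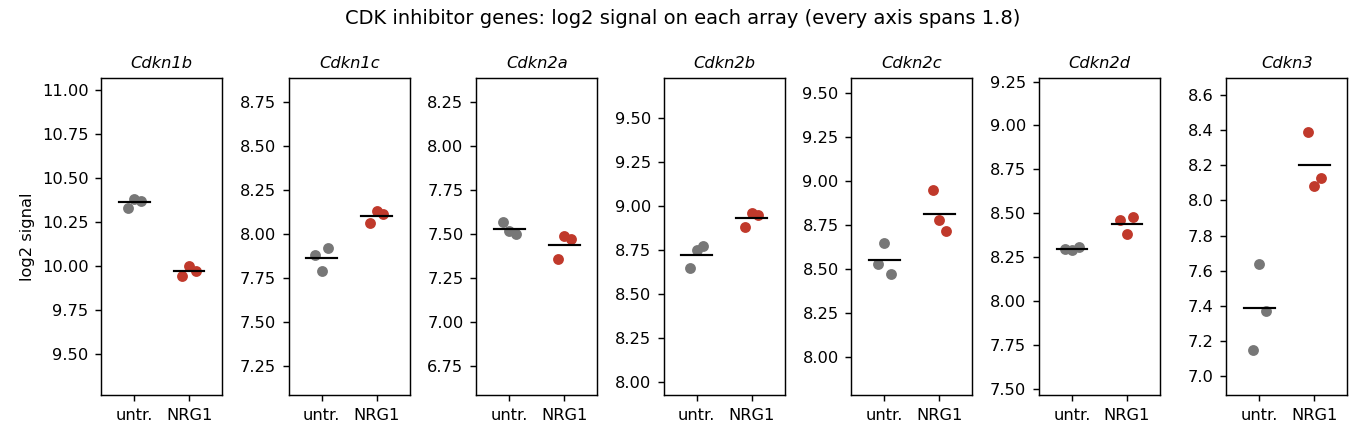
Log2 signal (vertical axes) of the 7 measured CDK inhibitor genes on the 3 untreated arrays (grey) and the 3 NRG1 arrays (red), 1 panel per gene, with the group mean as a line; each axis spans the same range but starts at its own level. In no panel do the groups overlap, though for Cdkn2a the nearest arrays of the groups almost meet. NRG1 is lower for Cdkn1b and Cdkn2a and higher for the other 5, and the gap is widest for Cdkn3.

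Cdkn1b, which encodes p27, the inhibitor that keeps quiescent cells out of S phase, was the member that fell. Its signal was 10.33, 10.38 and 10.37 on the untreated arrays and 9.94, 10.00 and 9.97 on the NRG1 arrays. The 3 arrays of each group lay close together and the groups were far apart by comparison. The difference was -0.39 ± 0.057 (SE; 95% interval -0.52 to -0.26), a signal 1.31-fold lower with NRG1 (limma, adjusted p = 0.000669). A larger absolute difference was found in 9.24% of all genes. The second Cdkn1b probe set stood at 9.50, 9.40 and 9.39 without NRG1 and at 9.04, 9.14 and 8.91 with it. Its difference of -0.40 ± 0.076 (SE) was nearly that of the first, and it too passed in a fit over all probe sets of the table (limma, adjusted p = 0.0152). The fall of Cdkn1b was called under 15 of 16 alternative settings, the exception being the minimum change of 1.2-fold (limma treat, adjusted p = 0.293).

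The promoter of Cdkn1b is shown because this gene was the fall of the list, and it can be set beside that of Cdkn3, the largest rise. Both windows run from 250 bases before to 50 bases after the start of transcription, from RefSeq on GRCm38.p6, at chr6:134920151-134920450 on the plus strand for Cdkn1b and chr14:46760291-46760590 on the plus strand for Cdkn3. Capitals mark CCAAT boxes, read as CCAAT or ATTGG according to strand, and the letters of the cell cycle homology region (CHR), searched as TTTGAA, with its complement TTCAAA, and as TTTAAA.
Cdkn1b: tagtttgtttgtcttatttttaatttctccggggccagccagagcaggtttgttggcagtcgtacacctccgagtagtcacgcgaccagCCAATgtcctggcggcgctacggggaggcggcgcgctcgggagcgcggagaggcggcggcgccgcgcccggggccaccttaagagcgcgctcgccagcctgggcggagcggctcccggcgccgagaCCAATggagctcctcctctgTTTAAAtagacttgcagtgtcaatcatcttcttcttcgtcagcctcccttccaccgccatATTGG
Cdkn3: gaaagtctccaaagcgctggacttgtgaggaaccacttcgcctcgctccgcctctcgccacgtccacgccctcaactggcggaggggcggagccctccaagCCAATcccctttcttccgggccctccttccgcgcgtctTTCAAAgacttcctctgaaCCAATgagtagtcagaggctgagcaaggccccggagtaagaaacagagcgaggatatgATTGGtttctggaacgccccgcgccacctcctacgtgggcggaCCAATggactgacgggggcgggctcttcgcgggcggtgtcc

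The Cdkn1b window held 3 CCAAT boxes and 1 TTTAAA, and the Cdkn3 window 4 CCAAT boxes and 1 TTTGAA in its complement. Of 32851 promoter windows of the same length, 37.4% held a CCAAT box, 1.06% held 4 or more, 17.9% held TTTGAA and 13.2% held TTTAAA; the count of 4 or more was looked up after the Cdkn3 window had been read. Across the list, 6 genes had a promoter entry, with 8 windows in all, and Cdkn1c had none. A CCAAT box occurred in 5 of the 8 windows and the SP1 letters GGGCGG in 7, against 35.7% of all windows for GGGCGG. The 7 windows with GGGCGG held 57.7% to 77% G and C, against a median of 52.7% over all windows. The window without it, of Cdkn2c, held 44%. The part of base composition in the GGGCGG count was not tested. The longer SP1 form GGGGCGGGG, which contains GGGCGG, stood once, in Cdkn2b (11.4% of all windows). TTTGAA also occurred in Cdkn2b, the E2F letters TTTCCCGC once, in a window of Cdkn2a (1.07% of all windows), and the E-box CACGTG once, in a window of Cdkn2c (7.15%). The letters TTTGGCGC for E2F, TGTTTAC for FOXO and TGACTCA for AP-1 were in none of the 8, on either strand. They were uncommon over all windows too, at 0.514%, 3.65% and 5.2%, so their absence from 8 windows does not set these promoters apart. These matches describe letters in a window and were not tested for use by a factor.

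Cdkn3 had the largest difference of the list and is the member that removes phosphate from CDKs instead of binding them as a brake. Its signal was 7.15, 7.64 and 7.37 on the untreated arrays and 8.39, 8.08 and 8.13 on the NRG1 arrays. Every NRG1 array was above every untreated array, though the untreated arrays were more spread than for any other member. The means were 8.20 ± 0.17 with NRG1 and 7.39 ± 0.25 without (SD, n = 3 each), and Cdkn3 rose by 0.81 ± 0.12 (SE; 95% interval 0.54 to 1.09), or 1.76-fold (limma, adjusted p = 0.000884). Only 2.89% of all genes had a larger absolute difference. The call held under all 16 alternative settings, with differences from 0.69 to 0.96, and held against the minimum change of 1.2-fold (limma treat, adjusted p = 0.0124). Cdkn3 is itself transcribed mostly in cells about to divide. The 17 genes of G2 and mitosis examined beside it all rose (median log2 difference 1.33), and the estimate for each of the 17 was above that of Cdkn3, if barely so for Ube2c at 0.82, and reached 1.76 for the proliferation marker Mki67. Their part in the rise of Cdkn3 was not tested.

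**Figure D2:**
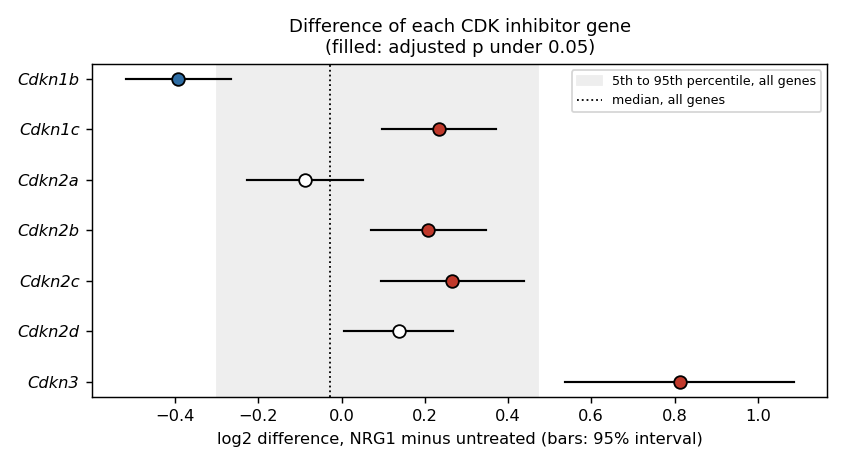
Log2 difference, NRG1 minus untreated (horizontal axis), of each measured CDK inhibitor gene with its 95% interval; filled points passed an adjusted p of 0.05 (red higher, blue lower with NRG1), the grey band runs from the 5th to the 95th percentile of all genes (-0.30 to 0.47) and the dotted line is their median. Cdkn1b and Cdkn3 lie outside the band on opposite sides, and the other 5 lie within it.

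Cdkn1c, which encodes p57, is an imprinted gene read from the maternal copy and known for arresting cells as they differentiate. Its signal was 7.88, 7.79 and 7.92 without NRG1 and 8.06, 8.13 and 8.11 with NRG1. The groups did not overlap, and the NRG1 arrays lay closer together than the untreated arrays. The rise was 0.23 ± 0.061 (SE; 95% interval 0.097 to 0.37), or 1.18-fold (limma, adjusted p = 0.0214). It no longer passed after quantile normalization (adjusted p = 0.0512), nor without NRG1 replicate 2 (limma, adjusted p = 0.0735), without NRG1 replicate 3 (0.0695) or without untreated replicate 1 (0.0612). Of the 3 nearest tested genes on each side of Cdkn1c on chromosome 7 in RefSeq order, Tssc4 rose by 0.88 (limma, adjusted p = 5.85e-06) and Nap1l4 by 0.29 (adjusted p = 0.00617). The other 4 neighbours, Trpm5, Kcnq1, Slc22a18 and Phlda2, had differences from -0.064 to -0.029 and did not pass. Of these 4, Phlda2 alone kept its sign under every alternative setting run for it. Phlda2 and Slc22a18 are imprinted like Cdkn1c and are read from the same parental copy.

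Among the INK4 genes, Cdkn2b and Cdkn2c rose slightly, and Cdkn2a and Cdkn2d did not pass the test. Cdkn2a, whose exons give both p16 and the p53 activator p19ARF, had signals of 7.57, 7.52 and 7.50 without NRG1 and 7.36, 7.49 and 7.47 with it. The NRG1 arrays were all lower, though NRG1 replicate 2 lay almost level with untreated replicate 3. The difference was -0.089 ± 0.062 (SE; 95% interval -0.23 to 0.050; limma, adjusted p = 0.379), and none of 16 settings called it. This signal is no check on the labelled deletion, because the sources used here do not give the exons that the probes cover, and an array gives a background signal where no RNA is present.

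Cdkn2b, the p15 gene and a target of TGF-beta signalling, lies next to Cdkn2a on chromosome 4. Its signal was 8.65, 8.75 and 8.77 without NRG1 and 8.88, 8.96 and 8.95 with it. The groups did not overlap, but the gap between them was about as wide as the spread of the untreated arrays. The rise was 0.21 ± 0.062 (SE; 95% interval 0.071 to 0.35), or 1.16-fold (limma, adjusted p = 0.0372). It was called under 7 of 16 alternative settings and lost under 9. Among the losses were quantile normalization (limma, adjusted p = 0.116), centring of each array on its median (0.0636), and leaving out NRG1 replicate 1 (0.0591), NRG1 replicate 2 (0.114), NRG1 replicate 3 (0.112) or untreated replicate 1 (0.157).

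The genes around this locus were read as well. Mtap, the methylthioadenosine phosphorylase gene on the other side of Cdkn2a, rose by 0.20 ± 0.061 (SE; limma, adjusted p = 0.038), close in size to Cdkn2b, and was likewise called under 7 of 16 settings. Its call ended after quantile normalization with a difference of 0.14, and the leave-one-out fits gave 0.18 to 0.23, with 2 of 6 called. The probe set annotated to Mir31 fell by 0.56 (limma, adjusted p = 0.00119); it reports RNA of the microRNA's locus and need not report the mature microRNA. Ifne, Dmrta1, Zfp352 and Elavl2, also within 3 tested genes of Cdkn2a or Cdkn2b, had differences from -0.074 to 0.011 and did not pass, and among them Elavl2 alone kept its sign under every setting run for it. Over the 12 neighbours of Cdkn2a, Cdkn2b and Cdkn1c, 3 rose and 1 fell. Of all genes tested, 12.3% rose and 8.56% fell.

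Cdkn2c encodes p18, an INK4 protein found in many dividing tissues. Its signal was 8.53, 8.65 and 8.47 on the untreated arrays and 8.95, 8.78 and 8.72 on the NRG1 arrays. Untreated replicate 2 and NRG1 replicate 3 came nearest to each other, and the groups did not overlap. The rise was 0.27 ± 0.077 (SE; 95% interval 0.095 to 0.44; limma, adjusted p = 0.0333). Of 16 alternative settings 8 called it; it was lost after quantile normalization (limma, adjusted p = 0.0521) and median centring (0.0546), and without NRG1 replicate 1 (0.128), NRG1 replicate 2 (0.061), untreated replicate 1 (0.103) or untreated replicate 3 (0.109). Cdkn2d, the gene of the INK4 protein p19, stood at 8.30, 8.29 and 8.31 without NRG1 and at 8.46, 8.38 and 8.47 with it. Here the NRG1 arrays were all higher, but the difference of 0.14 ± 0.058 (SE; 95% interval 0.0068 to 0.27) did not pass (limma, adjusted p = 0.136; unadjusted p = 0.0411), with the deposited values or under any of 16 alternative settings.

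**Figure D3:**
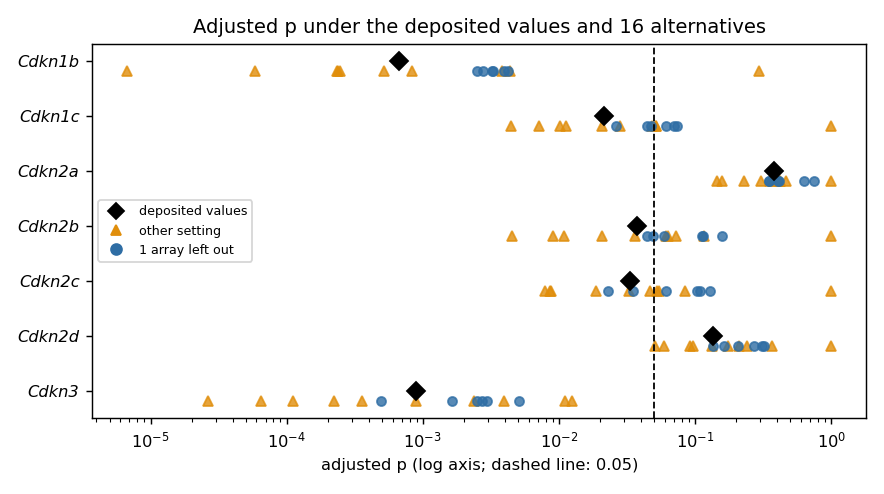
Adjusted p (horizontal log axis) of each measured CDK inhibitor gene with the deposited values (diamonds), under 10 other settings (triangles) and with 1 array left out (circles); the dashed line marks 0.05. Cdkn3 stays left of the line throughout and Cdkn1b at all but 1 setting, Cdkn2a and Cdkn2d stay right of it, and Cdkn1c, Cdkn2b and Cdkn2c fall on both sides.

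Most of the kinase and cyclin genes whose products these proteins bind rose. Of 15 tested genes of CDKs, cyclins and the CDK-activating kinase, 9 rose, 2 fell and 4 did not pass, with a median of 0.49. The shares over all genes were 12.3% upward and 8.56% downward. Among the targets of INK4 proteins, Cdk6 rose from 7.96 ± 0.031 to 9.64 ± 0.091 (SD, n = 3 each). Its log2 difference was 1.68 ± 0.065 (SE; limma, adjusted p = 7.66e-08), whereas Cdk4, its close relative, was at 0.19 and just outside the threshold (limma, adjusted p = 0.0515); 6 of 16 settings called it, with adjusted p between 0.00325 and 1. The D-type cyclin genes divided: Ccnd1 rose by 1.52 and Ccnd2 by 0.49, and Ccnd3 fell by 0.31.

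Cdk2, the main kinase held by p27 and p57 and a substrate of the Cdkn3 phosphatase, fell with Cdkn1b. Its signal went from 12.09 ± 0.069 to 11.52 ± 0.013 (SD, n = 3 each). The log2 change was -0.56 ± 0.061 (SE; limma, adjusted p = 8.38e-05), and all 16 alternative settings called it. The cyclin genes that partner it rose: Ccne1 by 0.66, Ccne2 by 1.11 and Ccna2 by 1.62. Cdk1, the mitotic kinase, rose by 1.00 and the B-type cyclin gene Ccnb2 by 1.31.

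**Figure D4:**
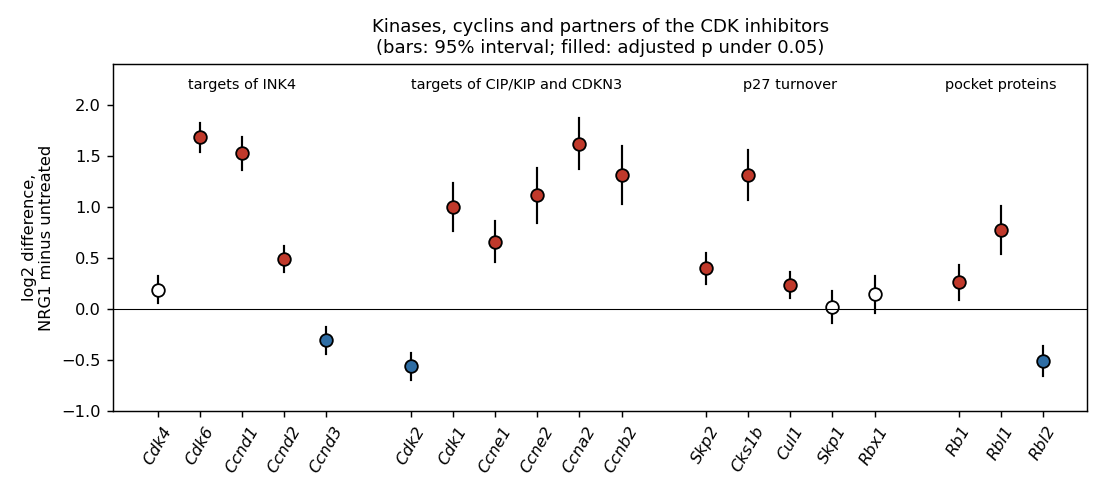
Log2 difference, NRG1 minus untreated (vertical axis), with 95% intervals, of the kinases and cyclins bound by the inhibitors, of genes for p27 breakdown and of the pocket proteins; filled points passed an adjusted p of 0.05 (red higher, blue lower). Cdk2, Ccnd3 and Rbl2 fell, Cdk4, Skp1 and Rbx1 did not pass, and the other genes rose, with Cdk6, Ccna2 and Ccnd1 highest.

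The inhibitors are also controlled by protein breakdown, which arrays do not see. Of 14 tested genes with a part in the turnover of CIP/KIP proteins, some of which promote breakdown and some of which oppose it, 6 rose, 0 fell and 8 did not pass, with a median of 0.19. Upward and downward shares over all genes were 12.3% and 8.56%. One of the 6 turnover genes, Fzr1, which rose by 0.26, directs the breakdown of Skp2 and so spares p27. Skp2, the F-box protein that recognises phosphorylated p27, rose by 0.40 ± 0.068 (SE; limma, adjusted p = 0.00189), and Cks1b, the small partner that Skp2 needs for this, by 1.31 ± 0.11 (SE; adjusted p = 1.42e-05). The rise of Skp2 was lost only against the minimum change of 1.2-fold among 16 settings. Dtl and Pcna, which together mark p21 for breakdown on DNA, rose by 0.94 and 0.93. The p27 transcript was thus lower and the Skp2 and Cks1b transcripts higher, each by its own test; protein was not measured.

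Other proteins that act on CDKs gave 8 rises, 0 falls and 6 that did not pass, of 14 tested. The largest rises were those of the CDK-binding protein gene Cks2 (1.62), the CDK-activating phosphatase gene Cdc25c (1.07), the CDK2-associated protein gene Cdk2ap1 (0.55) and Cdc25b (0.47). Among 13 pocket protein and E2F genes, which lie downstream of CDK4, CDK6 and CDK2, 7 rose and 2 fell. For both lists the shares over all genes were 12.3% upward and 8.56% downward. Rb1, the retinoblastoma gene, rose by 0.26 (limma, adjusted p = 0.0349), a call that 8 of 16 settings kept; leaving out single arrays gave 0.19 to 0.33, with 1 of those 6 fits calling it. That fit was the one without untreated replicate 2. Its relatives went opposite ways, Rbl1 up by 0.77 and Rbl2, the pocket protein of resting cells, down by 0.51. The S-phase factor genes E2f1 and E2f8 rose by 0.63 and 0.91.

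Regulators known to act on the inhibitor genes went both ways. Of 17 tested regulators of CIP/KIP transcription 5 rose and 3 fell, with a median of 0.027. Among all genes 12.3% rose and 8.56% fell. Foxm1, a driver of mitotic genes, rose by 1.14, and Foxo1, which can activate Cdkn1b, by 0.94, while Mitf, which acts on Cdkn1a and Cdkn2a in melanocytes, fell by 0.53. Foxo3, another FOXO factor known to act on Cdkn1b, was at 0.027 (limma, adjusted p = 0.836) and turned to -0.045 after quantile normalization. Smad3, a transducer of TGF-beta signals, rose by 0.32 (limma, adjusted p = 0.0131), a call lost under 3 of 16 settings: the 1.2-fold minimum, and the fits without NRG1 replicate 2 (0.0536) and without untreated replicate 1 (0.0612).

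Of 25 regulators of the INK4 locus 5 rose and 3 fell, and 17 did not pass. By the same rule 12.3% of all genes rose and 8.56% fell. Id2 fell by 1.40 and the Polycomb gene Cbx7, a repressor of Cdkn2a, by 0.82, whereas the Polycomb methyltransferase gene Ezh2 rose by 0.71, Cdc6 by 0.87 and Hmga2 by 0.73. Bmi1, the Polycomb gene best known for silencing Cdkn2a, was at 0.0078 (limma, adjusted p = 0.947), with a sign that turned after quantile normalization (-0.068) and median centring (-0.0039). In cells with an intact Cdkn2a locus, ARF restrains Mdm2, but this line is labelled Ink4a-ARF1 null in both groups. Of 7 tested genes of the ARF-p53 axis, 2 rose and 1 fell, beside the same shares over all genes. Trp53, the p53 gene itself, was on this list but was not among the genes tested. The checkpoint kinase gene Chek2 rose by 0.70 and the deubiquitinase gene Usp7 by 0.34, and the kinase gene Atm fell by 0.42. Mdm2 was at 0.098 and was not called (limma, adjusted p = 0.382).

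The genes whose 6 values ran closest to those of each called inhibitor were found as the smallest root mean square difference after centring each gene on its mean. For Cdkn1b these were Nrp2, Phlpp1 and Oxa1l, within 0.0139 to 0.0148 on the log2 scale. For Cdkn3 they were Mybl1, Arhgef26 and Sass6, at 0.059 to 0.0641. Spef1, Eif4a3 and Rep15 ran closest to Cdkn1c (0.0171 to 0.022), Tulp3, Hgsnat and Slc39a14 to Cdkn2b (0.02 to 0.0221), and Ubqln1, Mrpl18 and Srxn1 to Cdkn2c (0.0167 to 0.0183). These 6 arrays form 2 groups, so genes with a like difference between the groups rank high. Of the 5 inhibitors, Cdkn3 had the most distant nearest genes. It also had the largest difference and spread of the 5, and the distance is not scaled for either, so it does not show a more distinct profile.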

How the data were processed

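Log2 values of 6 Affymetrix Mouse Gene 1.0 ST arrays (200 ng total RNA each) were used as the authors deposited them. RMA and GCOS are named per the submitters' processing notes; the sources used here give neither versions nor settings, and the values (2.34 to 14.59) show the log2 scale. Groups came from sample titles, since the same treatment text stands with all 6 samples. All 6 columns matched a sample.

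Of 35557 probe sets, 21789 had 1 gene symbol, 1621 several and 12147 none here. Symbols were updated by Entrez number to RefSeq (GRCm38.p6; 21698 matched), and the brightest probe set of each gene was tested, unfiltered. Probe sets with several genes, including that of Cdkn1a, were left out. The test was limma 3.58.1 in R 4.3.3 (lmFit, eBayes, 2 groups, 2-sided, Benjamini-Hochberg over 19938 genes). An array has no read depth; the number of arrays limits precision (median SE 0.0708). In 10 simulated data sets over 19938 genes, 200 genes were changed in each and the noise of each gene was drawn independently. There 71.3% of changes of 0.5 and 97.5% of changes of 1 were recovered, with 3.17% of calls false. In the real data 20.9% of genes were called, so these shares need not hold there. Changes below 0.5 were not simulated, so the shares say nothing on the smaller member differences.

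The members and gene lists were chosen with earlier results of these data known. Named were all members, fixed partner genes (those tested), all called genes of a list with up to 5 calls or its 4 largest, neighbours 3 tested genes away, and 3 nearest profiles; the text prints a part.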

Additional observations from a re-analysis of the deposited data

How the results depend on the processing

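All 7 measured CDK inhibitor genes kept their direction under the 16 alternatives (2 normalizations, 2 filters on dim genes, mean of probe sets, all probe sets, trend with robust prior, array weights, replicate block, a 1.2-fold minimum, and 6 fits without 1 array). Their number of rises, 4, became 1 after quantile normalization, 2 with median centring, 2 with all probe sets tested and 1 against the 1.2-fold minimum, which also took the falls from 1 to 0; without single arrays it ran from 1 to 4. The differences that no longer passed were, after quantile normalization, 0.18 for Cdkn1c, 0.15 for Cdkn2b and 0.21 for Cdkn2c; with median centring, 0.20 for Cdkn2b and 0.25 for Cdkn2c; with all probe sets tested, 0.21 for Cdkn2b and 0.27 for Cdkn2c, where more tests enter the adjustment; and against the 1.2-fold minimum, which asks for more, -0.39 for Cdkn1b, 0.23 for Cdkn1c, 0.21 for Cdkn2b and 0.27 for Cdkn2c. Without single arrays the differences ran from -0.41 to -0.38 for Cdkn1b, 0.20 to 0.26 for Cdkn1c, 0.17 to 0.23 for Cdkn2b, 0.20 to 0.32 for Cdkn2c and 0.69 to 0.94 for Cdkn3, with 3, 2 and 2 of 6 fits calling Cdkn1c, Cdkn2b and Cdkn2c. The cause of these losses was otherwise not tested. Both Cdkn1b probe sets stayed called after quantile normalization (-0.44 and -0.43).

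Deviations from the group means correlated at -0.095, -0.164 and 0.0739 for arrays of equal replicate number, and at -0.196 to 0.247 for the others. These correlations cannot decide whether arrays of equal number were handled as pairs. With the number as a replicate block, 2 members rose (Cdkn2c and Cdkn3), while Cdkn1c (0.23, limma, adjusted p = 0.0519) and Cdkn2b (0.21, adjusted p = 0.0615) no longer passed.

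The 1.2-fold minimum also took the falls over all gene lists to 6, the rises among the neighbours from 3 to 1 and their falls from 1 to 0. Among the named genes, signs turned for 8, none called with the deposited values: Foxo3 (-0.045 with quantile normalization; -0.021 to 0.073 without single arrays), Bmi1 (-0.068 with quantile normalization, -0.0039 with median centring, -0.012 with array weights; -0.030 to 0.029 without single arrays), Ifne (0.016 with array weights), Dmrta1 (-0.0011 with median centring, -0.069 with array weights; -0.032 to 0.073 without single arrays), Zfp352 (-0.168 to 0.027 without single arrays), Trpm5 (-0.098 to 0.051), Kcnq1 (-0.10 to 0.040) and Slc22a18 (-0.11 to 0.042).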
